A study of Komagataella pastoris with 15 samples.

Results

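The genes described here are 4 of the pentose phosphate pathway of the methylotrophic yeast Pichia pastoris, ZWF1, SOL3, GND1 and TKL1, taken by locus tag (PAS_chr2-1_0308, PAS_chr3_1126, PAS_chr3_0277 and PAS_chr1-4_0150) from the 5039 tags of an expression array. The array files give tags without names. The gene names are those that the selection gives to the tags. All 4 tags were on the array with 1 probe each, and all 4 passed the filter on dim probes, as did 5024 tags in all.

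The pentose phosphate pathway draws glucose-6-phosphate away from glycolysis. Its oxidative branch yields NADPH, the reductant of biosynthesis and of the defence against oxidants, and its non-oxidative branch rearranges sugar phosphates and supplies ribose-5-phosphate for nucleotides. In the baker's yeast Saccharomyces cerevisiae, ZWF1 encodes glucose-6-phosphate dehydrogenase, which opens the oxidative branch, SOL3 encodes 6-phosphogluconolactonase, the step after it, and GND1 encodes 6-phosphogluconate dehydrogenase, which closes the branch with a further NADPH. TKL1 encodes transketolase of the non-oxidative branch. In methylotrophic yeasts the same sugar phosphate rearrangements regenerate xylulose-5-phosphate, the acceptor of the formaldehyde made from methanol.

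The cells came from 3 fermentors of 40 L, numbered 1 to 3, that made recombinant human serum albumin (rhHSA) in fed-batch culture, and each was sampled at 5 phases (15 arrays with a single dye). They were logarithmic growth, glycerol feeding at its end (the cells had then starved for 40 min), cells fully adapted to methanol as the only carbon source, the peak of the rhHSA expression rate, and the end of fermentation, at which rhHSA had dropped to 220 mg/L. All phases share the rhHSA-producing culture, with no culture without the product. Neither the strain nor the promoter of the rhHSA gene is stated in the labels or file headers.

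The share of probes well above background was 98.7% to 99.96% over the arrays, and the number of arrays limits the precision. All 3 arrays from the end of fermentation and array 1 of each earlier phase came from scan 1 (7 arrays), while the remaining 8 came from scan 2, so scan was fitted as a block. In the earlier phases scan 1 holds only fermentor 1, and scan 2 only fermentors 2 and 3. Scan and fermentor cannot be told apart in those phases, so a fitted difference between scans may hold one between fermentors. In the fit, values of ZWF1 were 0.56 log2 units higher on scan 2 than on scan 1, those of SOL3 0.27 higher, those of TKL1 0.024 higher and those of GND1 lower, at -0.11. On scan 1 alone each earlier phase has 1 array, so a fit there takes its spread from the end-of-fermentation arrays only. Calls of that fit are counted below only together with those of all other refits. Between logarithmic growth arrays 2 and 3 the differences stayed within spot noise (2.31% of tags exceeded it at an unadjusted p below 0.05, and 7.13% to 56.4% did in the remaining same-scan pairs). They were counted as 1 sample in means, so that n = 2 there, and kept apart in the fits. With this pair, arrays 2 and 3 of the end of glycerol feeding, and the 3 end-of-fermentation arrays each averaged into 1 sample, which leaves fewer samples, 10 of the 25 changes called below were no longer called. They were ZWF1 at the end of fermentation against logarithmic growth (adjusted p = 0.0644) and methanol-adapted cells (0.242) and at the end of glycerol feeding against logarithmic growth (0.107), SOL3 at the end of fermentation against methanol-adapted cells (0.0892) and on the arrays labelled rhHSA peak against logarithmic growth (0.136), and TKL1 in the same comparison (0.0746). The others were methanol-adapted cells against the end of glycerol feeding for TKL1 (0.156) and GND1 (0.0858), and for GND1 also the arrays labelled rhHSA peak (0.144) and the end of fermentation (0.194) against the end of glycerol feeding. Across all tags the arrays labelled rhHSA peak correlated with logarithmic growth at r = 0.976 on scan 1 and 0.975 on scan 2, and with methanol-adapted cells at r = 0.913 and 0.922. With the end of glycerol feeding r was 0.947 and 0.946, and with the end of fermentation, which is on scan 1 only, it was 0.899. They were thus most like the first phase of the culture, and whether they hold the phase of their label is in doubt. Their values are given as those of the arrays so labelled.

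All 4 probes were bright. GND1 lay between the 98.9th and 99.7th percentile of the tags on every array, TKL1 between the 89.1th and 98.4th, ZWF1 between the 87.6th and 99.1th, and SOL3 between the 77.7th and 94.6th. None of the 45 spots of any of the 4 probes was saturated. Flagged as outliers and left out were 6 spots of TKL1, 3 of ZWF1, 2 of GND1 and 0 of SOL3. TKL1 thus rested on 1 spot on array 2 labelled rhHSA peak and on array 3 of the end of fermentation. GND1 reached 56.3% of the saturation value on scan 1 and 16.5% on scan 2. Levels below are signals as multiples of the 75th percentile of the array, given for arrays 1, 2 and 3 in turn, and changes are on the log2 scale. An adjusted p is that of limma over the 5024 tags, or over 3915 tags where the log2 values deposited by the authors were fitted. A change was called at an adjusted p below 0.05. Over the 5 phases, limma's moderated F statistic called each of the 4 genes (adjusted p = 1.01e-05 for ZWF1, 1.76e-05 for SOL3, 0.0226 for GND1 and 1.92e-06 for TKL1), and 96.1% of all tags. P-values measure the spread between these arrays, on which the fermentors are the only replication that the labels name.

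Array 3 of methanol-adapted cells and array 3 labelled rhHSA peak stood apart in bright probes. On array 3 of methanol-adapted cells the brightest 10% of tags was lower than on array 2 of the same phase and scan, with a median difference of -0.45 by the 75th percentile scaling, while the median over all tags was 0.054. The 4 genes shared it, at -0.53 for ZWF1, -0.50 for SOL3, -0.68 for GND1 and -0.67 for TKL1. On array 3 labelled rhHSA peak the brightest 10% was at -0.39 against array 2, and the 4 genes between -0.51 and -0.18. With quantile normalization the brightest 10% was at -0.031 and -0.12 in these phases, and GND1 at 0.055 and -0.0087. SOL3 stayed low on array 3 with it, at -0.45 for methanol-adapted cells and -0.33 for the arrays labelled rhHSA peak, where TKL1 was at -0.12 and -0.044 and ZWF1 at 0.15 and -0.073. Without methanol array 3, the change against logarithmic growth was 1.03 for ZWF1 (adjusted p = 3.83e-08) and -0.75 for SOL3 (adjusted p = 7.21e-05), beside 0.86 and -0.91 with it. Without all arrays labelled rhHSA peak, no change of the 4 genes among the other phases lost its call, and SOL3 at the end of fermentation against logarithmic growth gained one (-0.32; adjusted p = 0.0482).

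**Figure D1:**
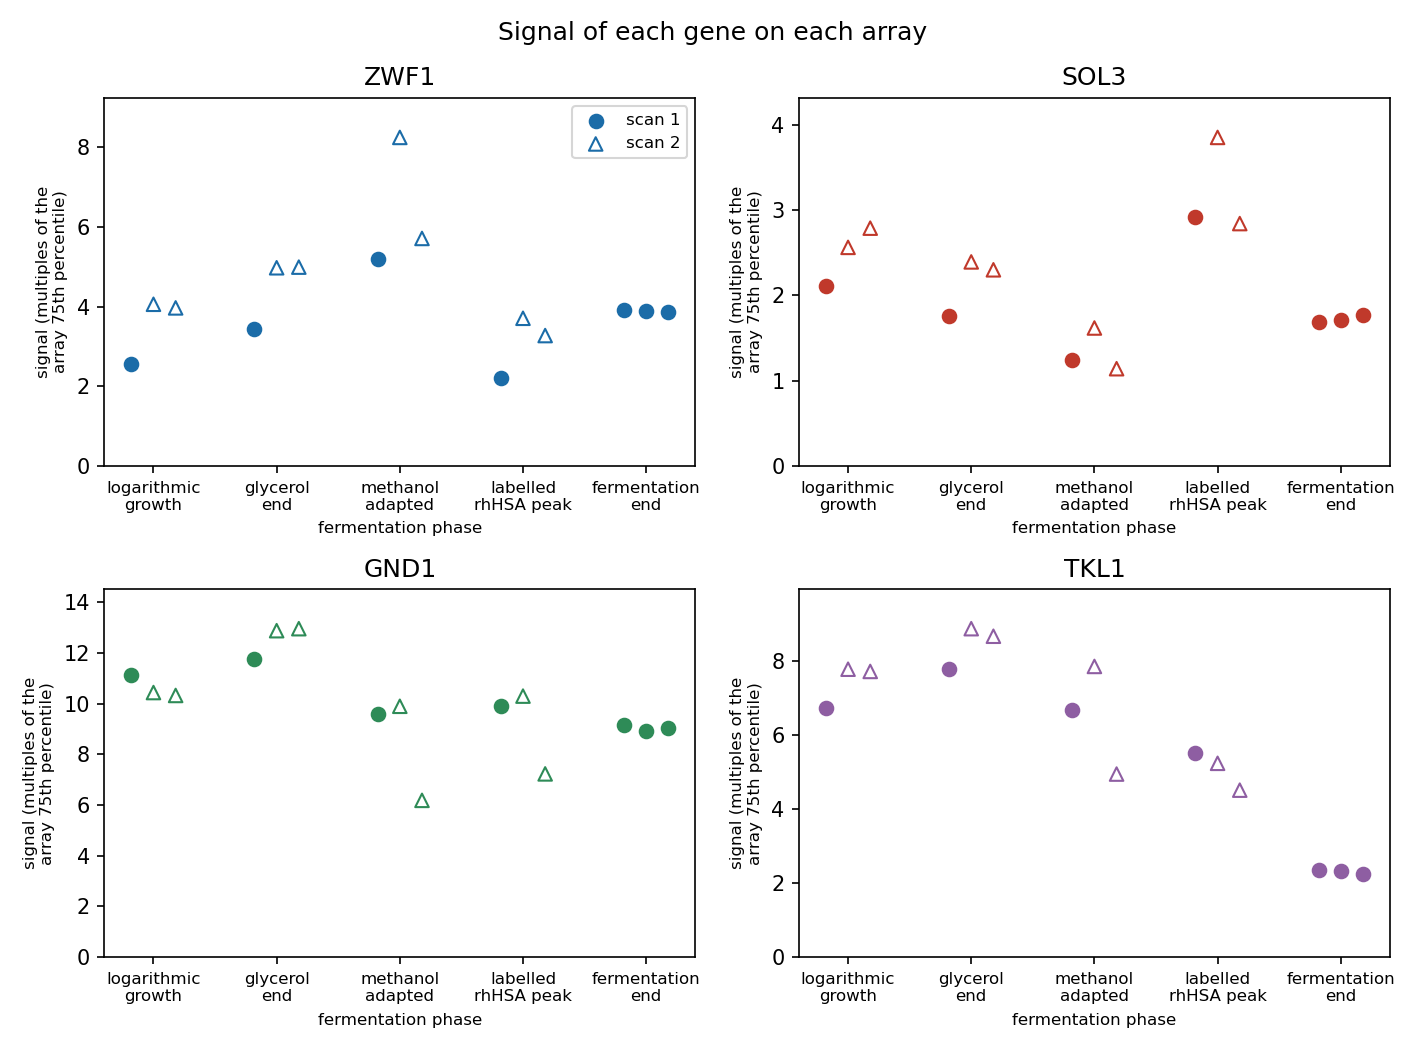
Signal of the 4 genes on each of the 15 arrays, as multiples of the array's 75th percentile (y axis, from 0), by fermentation phase (x axis), with arrays 1 to 3 from left to right in each phase. Filled circles are scan 1 and open triangles scan 2, without adjustment for scan. ZWF1 is highest and SOL3 lowest in methanol-adapted cells, and TKL1 is lowest at the end of fermentation, between 2.24 and 2.36.

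ZWF1, the entry enzyme of the oxidative branch, was highest in methanol-adapted cells and lowest on the arrays labelled rhHSA peak. Its signal was 2.57, 4.06 and 3.97 in logarithmic growth, 3.43, 4.97 and 4.99 at the end of glycerol feeding, 5.21, 8.25 and 5.71 in methanol-adapted cells, 2.21, 3.71 and 3.27 on the arrays labelled rhHSA peak, and 3.91, 3.88 and 3.87 at the end of fermentation. Within each scan every methanol array was above every array of the other phases. The share of all tags whose arrays separate in this way was not counted, here or for the genes below. Over the 5 phases 96.1% of all tags were called by limma's moderated F statistic, so such separation may be common. The RNA came from whole cultures, in which a change in some of the cells and a smaller one in all of them cannot be told apart.

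Methanol-adapted cells had 1.81 times the ZWF1 level of logarithmic growth (log2 change 0.86 ± 0.11, SE; adjusted p = 1.54e-05), with changes of 1.02 on scan 1 and 0.77 on scan 2. After adjustment for scan, the log2 level was 2.27 ± 0.28 in methanol-adapted cells (SD, n = 3) and 1.40 ± 0.061 in logarithmic growth (SD, n = 2). The starved cells that ended glycerol feeding already had 1.27 times the level of logarithmic growth (0.35 ± 0.11, SE; adjusted p = 0.0138), a call that is lost without a scan block (adjusted p = 0.291), on scan 2 alone (0.172), without logarithmic growth array 1 (0.0567), with the near-identical arrays averaged (0.107) and with fermentor, not scan, as a replicate block (0.0694). Methanol-adapted cells exceeded starved cells by 0.51 ± 0.11 (SE; adjusted p = 0.00177; 0.90 with quantile normalization), which is lost without a scan block (adjusted p = 0.158) and on scan 2 alone (0.0757).

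The arrays labelled rhHSA peak had 0.478 times the ZWF1 level of methanol-adapted cells (log2 change -1.06 ± 0.11, SE; adjusted p = 2.50e-06). They were also below the end of glycerol feeding (-0.56 ± 0.11, SE; adjusted p = 0.000746; 0.0997 without a scan block). Against logarithmic growth they were not called (-0.21, 95% interval -0.45 to 0.035, adjusted p = 0.129). They were called lower, at -0.25 to -0.21, with array weights, with quantile normalization, in the authors' values and without methanol array 3 (adjusted p of 0.000818 to 0.0128). The array weights did not reach the convergence tolerance, here and below. On scan 1 alone the change was -0.21. At the end of fermentation ZWF1 was again higher, 1.68 times the level of the arrays labelled rhHSA peak (0.75 ± 0.12, SE; adjusted p = 0.000139; 0.215 without a scan block) and 1.45 times that of logarithmic growth (0.54 ± 0.12, SE; adjusted p = 0.00178). The change against logarithmic growth was 0.17 without a scan block and was not called there (adjusted p = 0.586, and 0.338 with fermentor, not scan, as a replicate block). On scan 1 alone, which holds every array of the end of fermentation, it was 0.60, and with quantile normalization 0.90. From high to low the order of ZWF1 was methanol-adapted cells, end of fermentation, end of glycerol feeding, logarithmic growth and arrays labelled rhHSA peak. Of the neighbours in it, the end of fermentation was below methanol-adapted cells (-0.32 ± 0.12, SE; adjusted p = 0.037), a call lost with fermentor as a replicate block beside scan (0.113), with median centring (0.0602), with normexp background correction (0.0795), with these phases fitted alone (0.137) and on leaving out any of 8 single arrays (0.0502 to 0.260). The end of fermentation and the end of glycerol feeding were not called apart with scan as a block (0.19, 95% interval -0.079 to 0.46; adjusted p = 0.177). The end of fermentation was called higher at 0.58 with quantile normalization (adjusted p = 1.02e-05) and at 0.56 in the authors' values. It was also called higher at 0.24 with array weights (adjusted p = 0.00264) and without methanol array 3 (0.00449), and at 0.18 with these phases fitted alone (0.00805). On scan 1 alone the change was also 0.18.

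SOL3, the lactonase that follows ZWF1, ran the other way. Its signal was 2.11, 2.56 and 2.79 in logarithmic growth, 1.76, 2.39 and 2.30 at the end of glycerol feeding, 1.24, 1.62 and 1.14 in methanol-adapted cells, 2.92, 3.85 and 2.84 on the arrays labelled rhHSA peak, and 1.69, 1.71 and 1.77 at the end of fermentation. The 3 methanol arrays were below all 12 other arrays, with no overlap on either scan.

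Methanol-adapted cells had 0.534 times the SOL3 level of logarithmic growth (log2 change -0.91 ± 0.13, SE; adjusted p = 4.11e-05), the change being -0.76 on scan 1 and -0.98 on scan 2. They had 0.618 times that of the end of glycerol feeding (-0.69 ± 0.13, SE; adjusted p = 0.000654). Adjusted for scan, the log2 level was 0.22 ± 0.26 in methanol-adapted cells (SD, n = 3) and 1.11 ± 0.054 in logarithmic growth (SD, n = 2). The arrays labelled rhHSA peak had 2.41 times the level of methanol-adapted cells (1.27 ± 0.13, SE; adjusted p = 2.31e-06). This was 1.23 within scan 1 and 1.28 within scan 2. They exceeded the end of glycerol feeding by 0.57 ± 0.13 (SE; adjusted p = 0.00195; 0.0879 on scan 2 alone). They also exceeded logarithmic growth by 0.36 ± 0.13 (SE; adjusted p = 0.0324), which was no longer called without a scan block (0.173), with fermentor as the replicate block (0.0551), with logarithmic growth arrays 2 and 3 averaged (0.0614), with normexp background correction (0.196), on scan 2 alone (0.284), with these phases fitted alone (0.0729) or on leaving out any of 4 single arrays (0.0870 to 0.129). At the end of fermentation SOL3 was lower than on the arrays labelled rhHSA peak (-0.70 ± 0.15, SE; adjusted p = 0.000843) and higher than in methanol-adapted cells (0.56 ± 0.15, SE; adjusted p = 0.00412, 0.0791 without a scan block, and 0.0963 with these phases fitted alone). Against logarithmic growth it stood at -0.34 ± 0.15 (SE; adjusted p = 0.0525), and at -0.29 on scan 1 alone. Of the refits, 12 called this fall and 20 did not. It was called without a scan block (-0.52; adjusted p = 0.0242, and 0.00535 with fermentor as a replicate block). The same held with array weights (0.00178), with these phases fitted alone (0.00514) and on leaving out any of 5 single arrays (0.0267 to 0.0475). With quantile normalization it was not called (-0.18; adjusted p = 0.196).

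From high to low the order of SOL3 was arrays labelled rhHSA peak, logarithmic growth, end of glycerol feeding, end of fermentation and methanol-adapted cells, the reverse of the order of ZWF1 at each place. In the middle of it the neighbours were not called apart in the fit reported. The end of glycerol feeding stood at -0.21 against logarithmic growth (95% interval -0.50 to 0.075). This was called with array weights (adjusted p = 0.0334) and with these phases fitted alone (0.00898). The end of fermentation stood at -0.13 against the end of glycerol feeding (95% interval -0.45 to 0.19). The reversed order also held with median centring and quantile normalization, while in the authors' processed values the end of fermentation and the end of glycerol feeding changed places for SOL3.

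GND1, the last step of the oxidative branch, varied least. Its signal was 11.1, 10.4 and 10.3 in logarithmic growth, 11.8, 12.9 and 12.96 at the end of glycerol feeding, 9.58, 9.90 and 6.19 in methanol-adapted cells, 9.89, 10.3 and 7.23 on the arrays labelled rhHSA peak, and 9.18, 8.91 and 9.04 at the end of fermentation. The 3 arrays of the end of glycerol feeding were above all others. Those of logarithmic growth came next by a narrow margin, and the remaining phases overlapped. After adjustment for scan, logarithmic growth (lowest 11.146) also overlapped with the arrays labelled rhHSA peak (highest 11.149). Its fitted phase means spanned 0.58 log2 units, and 8.06% of tags spanned no more than that, against a median span of 1.24 over all tags. By the 75th percentile scaling it was highest at the end of glycerol feeding, and methanol-adapted cells (-0.58 ± 0.16, SE; adjusted p = 0.00779; 0.0599 on scan 2 alone, and a change of -0.37 without methanol array 3), the arrays labelled rhHSA peak (-0.47 ± 0.16, SE; adjusted p = 0.0209) and the end of fermentation (-0.55 ± 0.18, SE; adjusted p = 0.016; 0.057 with fermentor as a replicate block beside scan) were below it. The call for the arrays labelled rhHSA peak was lost without a scan block (adjusted p = 0.0507), with median centring (0.0570), on scan 2 alone (0.0970) and without array 2 or 3 of the end of glycerol feeding or array 3 labelled rhHSA peak (0.0671 to 0.0939). In the fit reported, no neighbours in its order were called apart. The end of glycerol feeding was called above logarithmic growth with array weights (0.30, adjusted p = 0.00544) and with these phases fitted alone (0.24, adjusted p = 0.0105). The end of fermentation against the arrays labelled rhHSA peak was called at -0.13 with array weights (adjusted p = 0.00933), but at 0.21 with quantile normalization (0.00245). In the authors' values the arrays labelled rhHSA peak were called below logarithmic growth (-0.11).

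The small differences of GND1 turned with the scaling. Quantile normalization sets all arrays to a common distribution. With it, methanol-adapted cells were above the end of glycerol feeding by 0.11 (adjusted p = 0.0479) and the end of fermentation by 0.17 (adjusted p = 0.0111), and the arrays labelled rhHSA peak lay at -0.045 (adjusted p = 0.406). The span over the phases was then 0.21 log2 units, or 1.16-fold, at the 0.338th percentile of all tags, and in the authors' processed values it was also 0.21. Quantile normalization gives a probe of nearly constant rank a nearly constant value. GND1 kept between the 98.9th and 99.7th percentile on every array. How much of its narrow span there comes from the scaling was not tested. The direction of GND1 among these phases thus differed between the scalings.

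**Figure D2:**
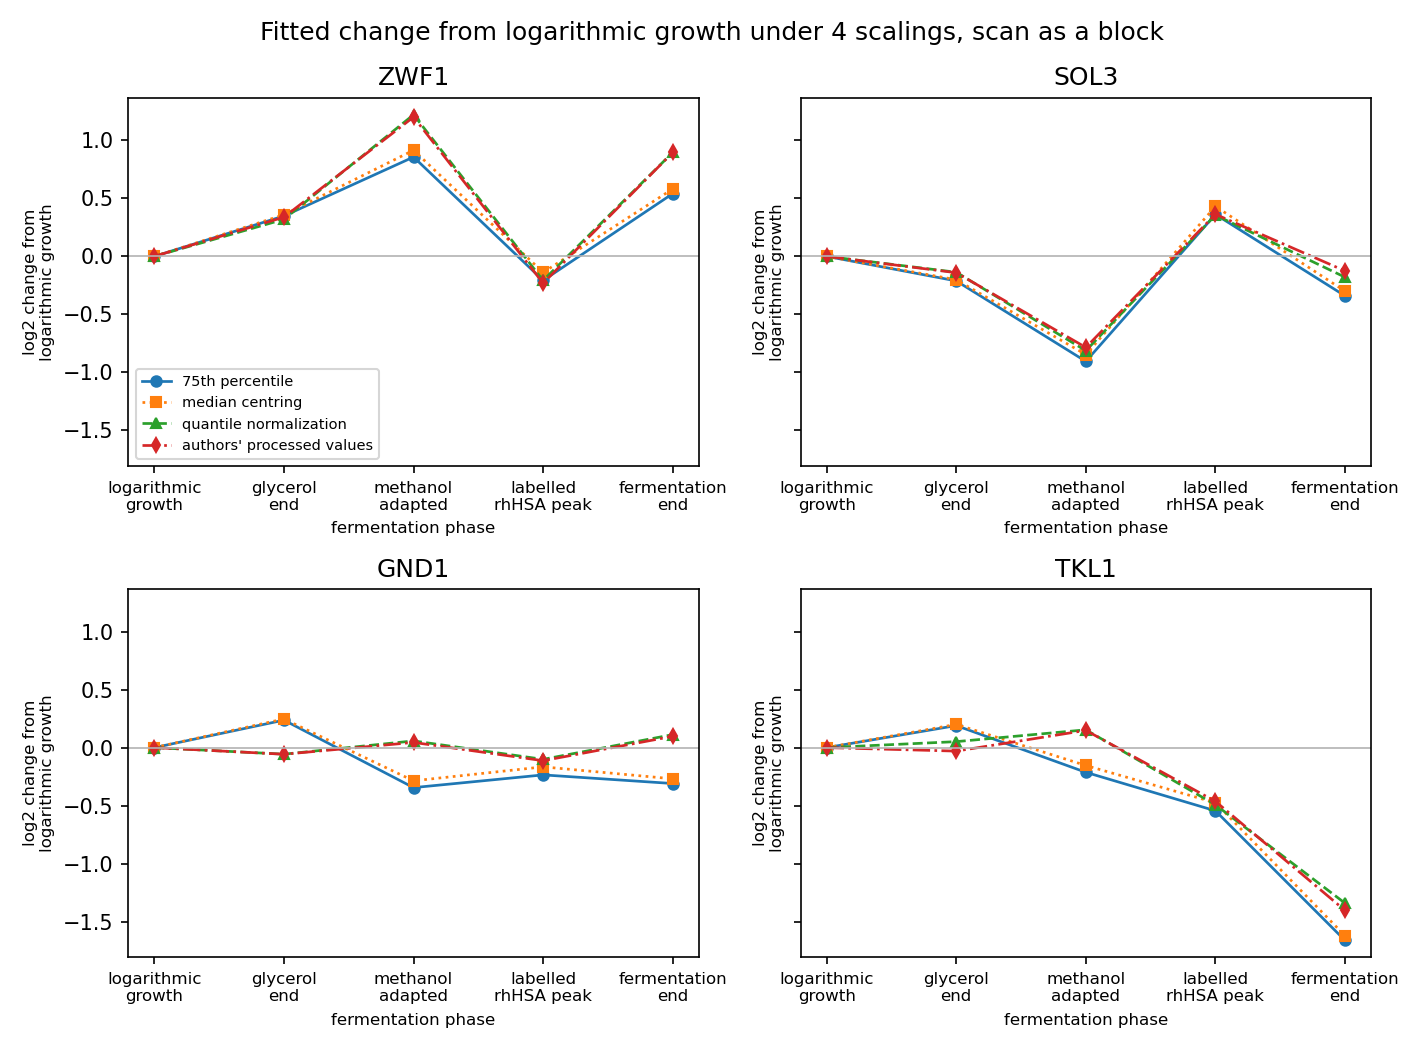
Fitted log2 change from logarithmic growth (y axis) by fermentation phase (x axis) for the 4 genes, with scan as a block, under 4 scalings of the arrays. ZWF1, SOL3 and the fall of TKL1 at the end of fermentation have the same direction in all 4 scalings, whereas the lines for GND1 lie on both sides of 0, within 0.35 of it.

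TKL1, the transketolase of the non-oxidative branch, had the widest span of the 4 genes by the 75th percentile scaling, 1.85 log2 units or 3.61-fold. Its signal was 6.73, 7.78 and 7.72 in logarithmic growth, 7.80, 8.88 and 8.67 at the end of glycerol feeding, 6.68, 7.86 and 4.95 in methanol-adapted cells, 5.51, 5.24 and 4.51 on the arrays labelled rhHSA peak, and 2.36, 2.34 and 2.24 at the end of fermentation. The 3 arrays of the end of fermentation were below all others.

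The end of fermentation had 0.316 times the TKL1 level of logarithmic growth (log2 change -1.66 ± 0.16, SE; adjusted p = 1.25e-06), 0.277 times that of the end of glycerol feeding (-1.85 ± 0.16, SE; adjusted p = 4.98e-07), 0.366 times that of methanol-adapted cells (-1.45 ± 0.16, SE; adjusted p = 4.41e-06) and 0.461 times that of the arrays labelled rhHSA peak (-1.12 ± 0.16, SE; adjusted p = 3.75e-05). Adjusted for scan, its log2 level was 1.21 ± 0.041 at the end of fermentation (SD, n = 3) and 2.84 ± 0.13 in logarithmic growth (SD, n = 2). On scan 1 alone the end of fermentation stood at -1.54 against logarithmic growth array 1, -1.53 against methanol array 1 and -1.25 against array 1 labelled rhHSA peak. These falls were called in all alternatives run, with adjusted p of at most 0.00694.

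The arrays labelled rhHSA peak also had less TKL1 than logarithmic growth (-0.54 ± 0.14, SE; adjusted p = 0.00604) and than the end of glycerol feeding (-0.73 ± 0.14, SE; adjusted p = 0.000594). The change against logarithmic growth was -0.29 on scan 1 alone, and that against the end of glycerol feeding -0.43 in the authors' values. Against methanol-adapted cells they stood at -0.33 ± 0.14 (SE; adjusted p = 0.0513), which became a call with fermentor and scan both as blocks (0.0409), at -0.65 with quantile normalization (adjusted p = 6.48e-07), at -0.61 in the authors' processed values and at -0.53 without methanol array 3 (adjusted p = 0.000474). Methanol-adapted cells stood at -0.40 ± 0.14 (SE; adjusted p = 0.0264) against the end of glycerol feeding, but at 0.10 with quantile normalization (adjusted p = 0.157) and at 0.18 in the authors' processed values (adjusted p = 0.0378 with a scan block), and at -0.20 without methanol array 3 (adjusted p = 0.0941). The call was also lost without a scan block, with median centring, with flagged spots kept, with normexp background correction, on scan 2 alone, with these phases fitted alone, with the near-identical arrays averaged, and without array 2 or 3 of the end of glycerol feeding (adjusted p of 0.0590 to 0.169). The order of TKL1 from high to low was end of glycerol feeding, logarithmic growth, methanol-adapted cells, arrays labelled rhHSA peak and end of fermentation. With quantile normalization methanol-adapted cells took the first place, before the end of glycerol feeding and logarithmic growth, and in the authors' processed values the end of glycerol feeding and methanol-adapted cells changed places. The last 2 places stayed.

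**Figure D3:**
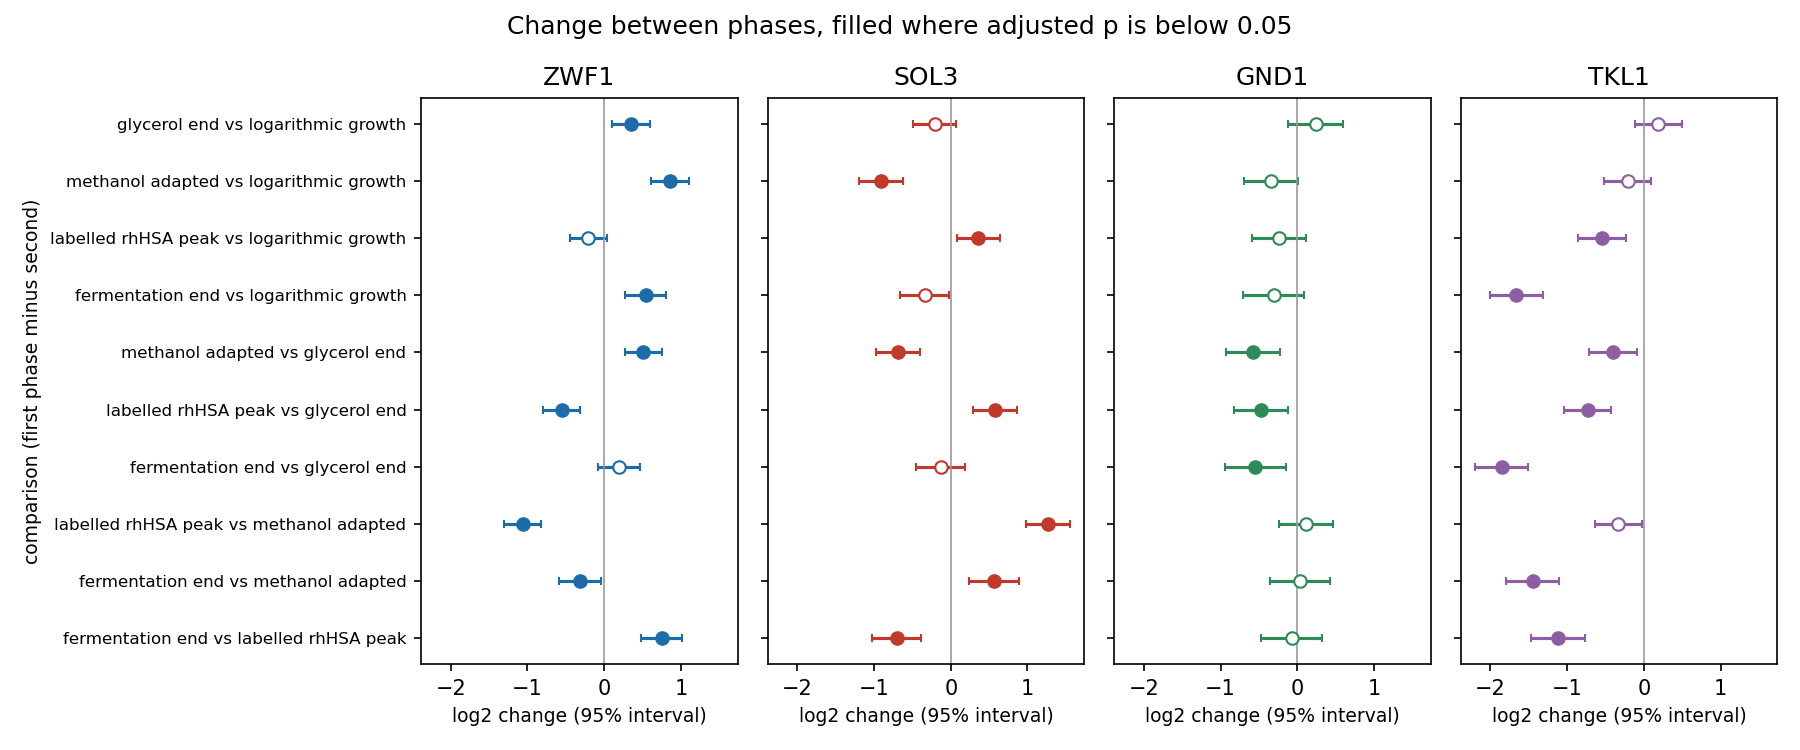
Log2 change (x axis, first phase minus second) with its 95% interval for each of the 10 pairs of phases (rows) and the 4 genes (panels), with scan as a block and the 75th percentile scaling. Filled points have an adjusted p below 0.05, and ZWF1 and SOL3 lie on opposite sides of 0 in every row.

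Comparisons of 1 gene with another on the same array do not depend on any factor applied to the whole array. The log2 ratio of ZWF1 to SOL3, which encode successive steps of the oxidative branch, was taken as a change from the logarithmic growth arrays of the same scan. It was 1.78, 1.76 and 1.74 in methanol-adapted cells, a mean of 3.39-fold, and 0.92, 0.90 and 0.84 at the end of fermentation. It was 0.68, 0.47 and 0.53 at the end of glycerol feeding, and -0.68, -0.64 and -0.38 on the arrays labelled rhHSA peak. The ranges of these 4 phases did not overlap, and methanol array 3 lay beside the other 2 methanol arrays here. Quantile normalization is not a single factor per array, and the ratios were not taken with it. Under it, the changes from logarithmic growth on methanol arrays 1, 2 and 3 were 1.17, 1.17 and 1.32 for ZWF1. Those for SOL3 were -0.77, -0.61 and -1.06, so methanol array 3 stood apart for both genes. The 6 ratios among the 4 genes are given without a test.

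Relative to GND1, ZWF1 changed by 1.20 ± 0.081 in methanol-adapted cells and by 0.90 ± 0.016 at the end of fermentation (SD, n = 3 each). The SDs of these ratios leave out the spread of the logarithmic growth arrays from which the changes are taken. On scan 1 that is 1 array, shared by all 3 end-of-fermentation arrays, so these SDs understate the uncertainty of a change. SOL3 changed relative to GND1 by -0.56 ± 0.088 in methanol-adapted cells and by 0.60 ± 0.053 on the arrays labelled rhHSA peak, and at the end of fermentation by 0.012 ± 0.045 (SD, n = 3 each). The last value depended on the scaling. With quantile normalization the fitted changes from logarithmic growth to the end of fermentation were -0.18 for SOL3 and 0.11 for GND1. In the authors' processed values they were -0.13 and 0.097, so SOL3 fell relative to GND1 in both. GND1 relative to TKL1 stayed within -0.21 and 0.16 of logarithmic growth on the arrays of the end of glycerol feeding and of methanol-adapted cells. At the end of fermentation it was 1.24 ± 0.043 (SD, n = 3). The widest opening between any pair was that of ZWF1 over TKL1 at the end of fermentation, at 2.12, 2.12 and 2.18, or 4.41-fold on average.

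**Figure D4:**
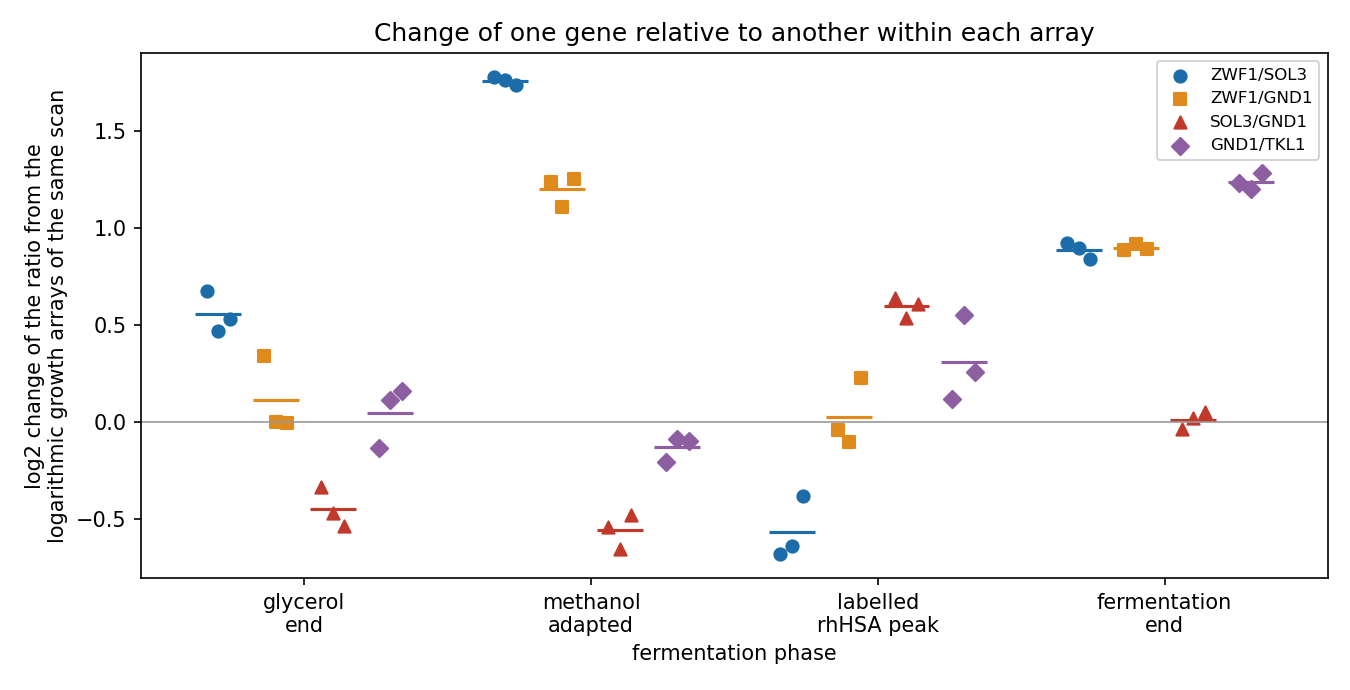
Log2 change of the ratio of 2 genes within each array (y axis), from the logarithmic growth arrays of the same scan, by fermentation phase (x axis). Points are the 3 arrays of a phase and bars their mean; ZWF1/SOL3 lies at 1.74 to 1.78 in methanol-adapted cells, and GND1/TKL1 at 1.20 to 1.29 at the end of fermentation.

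Most tags changed in each comparison, so the number of these genes called says little by itself. At the end of glycerol feeding against logarithmic growth 1 of the 4 was called, ZWF1, which was higher, where 72.7% of all tags were called (36.4% higher and 36.3% lower). In methanol-adapted cells against the end of glycerol feeding all 4 were called, ZWF1 higher and the other 3 lower, where 63.5% of all tags were called (23.2% higher and 40.4% lower). With quantile normalization 3 of 4 were called there, ZWF1 and GND1 higher and SOL3 lower (65.1% of all tags, with 1582 tags higher and 1688 lower, against 1164 higher and 2028 lower by the 75th percentile). On the arrays labelled rhHSA peak against methanol-adapted cells 2 of 4 were called, ZWF1 lower and SOL3 higher, where 74.6% of all tags were called (40.4% higher and 34.2% lower). With quantile normalization it was all 4, SOL3 higher and the other 3 lower (77.7% of all tags, with 1930 tags higher and 1976 lower, against 2029 higher and 1717 lower by the 75th percentile). At the end of fermentation against the arrays labelled rhHSA peak 3 of 4 were called, ZWF1 higher and SOL3 and TKL1 lower, where 77.4% of all tags were called (31% higher and 46.4% lower). With quantile normalization it was 4 of 4 (78.5% of all tags).

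The comparisons across more than 1 step share their arrays with those above. For methanol-adapted cells against logarithmic growth 2 of 4 were called, ZWF1 higher and SOL3 lower, where 79.5% of all tags were called (35% higher and 44.5% lower), and 3 of 4 with quantile normalization (82%, with 2094 tags higher and 2026 lower, against 1756 higher and 2236 lower by the 75th percentile). For the arrays labelled rhHSA peak against logarithmic growth 2 of 4 were called, SOL3 higher and TKL1 lower, where 58.3% of all tags were called (28.5% higher and 29.8% lower), and 3 of 4 with quantile normalization (63.4%). For the end of fermentation against logarithmic growth 2 of 4 were called, ZWF1 higher and TKL1 lower, where 74.2% of all tags were called (28.2% higher and 46% lower), and 2 of 4 with quantile normalization (76%). Here all tags split into 1415 higher and 2313 lower by the 75th percentile, against 1871 higher and 1946 lower with quantile normalization. The arrays labelled rhHSA peak had 4 of 4 called against the end of glycerol feeding, SOL3 higher and the other 3 lower, where 68.8% of all tags were called (32.6% higher and 36.2% lower), and 3 of 4 with quantile normalization (73%). The end of fermentation had 2 of 4 called against the end of glycerol feeding, GND1 and TKL1 lower, where 75% of all tags were called (29.3% higher and 45.7% lower). With quantile normalization it was 3 of 4 (75.1%), with ZWF1 and GND1 higher and TKL1 lower, and all tags split into 1882 higher and 1891 lower, against 1470 higher and 2297 lower by the 75th percentile. Against methanol-adapted cells the end of fermentation had 3 of 4 called, SOL3 higher and ZWF1 and TKL1 lower, where 73% of all tags were called (33.9% higher and 39.1% lower), and 3 of 4 with quantile normalization (75.3%, with 1963 tags higher and 1819 lower, against 1702 higher and 1966 lower by the 75th percentile).

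The change of ZWF1 in methanol-adapted cells against logarithmic growth was at least as large as that of 60.7% of tags and that of SOL3 as that of 63.3%, with a median size over all tags of 0.67. The change of TKL1 at the end of fermentation against logarithmic growth was at least as large as that of 89.4% of tags, with a median size of 0.61. The median change over all tags was itself -0.22 there by the 75th percentile and -0.0023 with quantile normalization. Relative to that median TKL1 stood at -1.44 by the 75th percentile and -1.34 with quantile normalization, and ZWF1 at 0.76 and 0.90. GND1 stood at -0.092 and 0.11.

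The mean profile of the 4 genes, each centred on its own mean and adjusted for scan, was followed by GND1 (r = 0.888 over the 15 arrays) and TKL1 (r = 0.886), but not by SOL3 (r = 0.299) or ZWF1 (r = -0.070). The arrays share phases, the mean holds each gene itself, and these r are descriptions. With quantile normalization r was 0.074 for GND1, 0.808 for TKL1, -0.658 for SOL3 and 0.442 for ZWF1, so the likeness of GND1 to the mean held by the 75th percentile scaling and not with quantile normalization. Set against the mean of the other 3 genes, TKL1 had r = 0.351 by the 75th percentile and -0.626 with quantile normalization. For GND1 these r were 0.791 and -0.111, for SOL3 -0.171 and -0.901, and for ZWF1 -0.44 and -0.666. The tags below were compared by the 75th percentile scaling alone. Among 3987 other tags with a value on every array, the 2 most like the mean profile of the 4 genes were PAS_chr1-4_0569 (r = 0.961) and PAS_chr1-3_0264 (r = 0.959). Both were highest at the end of glycerol feeding, with fitted log2 levels of 3.01 and 2.85, and lowest at the end of fermentation, with 1.84 and 1.87. The 2 most opposed were PAS_chr1-1_0426 (r = -0.961) and PAS_chr1-4_0241 (r = -0.955). PAS_chr1-4_0241 stood at 0.39 at the end of fermentation and at -1.55 at the end of glycerol feeding. None of these 4 tags is named in the files.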

How the data were processed

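Total RNA of a single culture and phase was copied to cRNA, labelled with Cy3 and hybridised to an array of its own, per the labels' protocols. Spot intensity in the deposited scanner files was extracted with Agilent Feature Extraction (version 10.7.3.1 per the file headers, 9.1 per the submitters' processing notes). The authors also deposited log2 values for 3915 of 5039 tags, for which the sources used here do not state a normalization.

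Log2 of the processed signal minus the 75th percentile of each array was averaged over the 3 spots of a probe without flagged outliers. A probe counted as measured on an array where 2 or more of its 3 spots were well above background, and the 5024 tags measured on every array of some phase were fitted in limma 3.58.1 under R 4.3.3 (lmFit, contrasts.fit, eBayes), with 5 phases and scan as a fixed block over all 15 arrays, and Benjamini-Hochberg adjustment at 0.05. Figures were made in Python 3.11.15 (pandas 2.3.3, matplotlib 3.10.9), and jsonlite 2.0.0 parsed the sample list. The procedure was tested on simulated data.

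The labels give the same fermentor at every phase, so numbers pair arrays by culture. Deviations from phase means correlated at -0.051 to 0.954 for fermentor 1, 0.176 to 0.917 for fermentor 2 and -0.314 to 0.901 for fermentor 3, and the scan enters these values. After adjustment for scan the ranges were -0.432 to 0.274, -0.165 to 0.703 and -0.602 to 0.815. Fermentor was a block in alternatives.

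The 4 genes and the lists were chosen with earlier results of these data known. The rule for the genes named in the text took the 4 genes, the 2 tags most like their mean profile and the 2 least like it. Of the 5039 tags, 0 matched the reference table (assembly ASM170810v1), so a list of other pathway genes was not analysed here. No sequence of these genes was used here.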

Additional observations from a re-analysis of the deposited data

How the results depend on the processing

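The 4 genes over 10 pairs of phases gave 40 changes. Direction and call held in 1125 of 1288 refits, and the direction turned in 43, of which 9 concern changes called in the fit reported. Changes of SOL3 in methanol-adapted cells against logarithmic growth and the end of glycerol feeding, and of ZWF1 and SOL3 between methanol-adapted cells and the arrays labelled rhHSA peak, were called in all alternatives that could be fitted, as were those of TKL1 at the end of fermentation. The change of ZWF1 in methanol-adapted cells against logarithmic growth was too. The alternatives with normexp on median signals and with all near-identical arrays averaged were chosen after seeing the data, and normexp on mean signals was not run. Array weights did not reach the convergence tolerance. Causes were not tested. Numbers of tags called moved by over 1.5 times without a scan block, to 2179 for the end of glycerol feeding against logarithmic growth, 1427 for methanol-adapted cells against the end of glycerol feeding, 1097 for the arrays labelled rhHSA peak against logarithmic growth, 1915 for them against the end of glycerol feeding and 2435 for them against methanol-adapted cells, and to 1886 on scan 2 alone for the arrays labelled rhHSA peak against logarithmic growth. Of the 4 genes, the number called at the end of glycerol feeding against logarithmic growth was 1 as reported. It was 0 by limma on scan 2 alone, with near-identical arrays averaged and without a scan block (0 in each also at an unadjusted p below 0.05), 0 with fermentor as a replicate block and no scan block (1 at an unadjusted p below 0.05), 3 with array weights, and 4 with the 2 phases alone. Leaving out single arrays it was 0 to 1. For the arrays labelled rhHSA peak against logarithmic growth it was 2 as reported, 0 with the near-identical arrays averaged (1 at an unadjusted p below 0.05), 1 when scan was dropped, when fermentor replaced it as a replicate block, with logarithmic growth arrays 2 and 3 averaged, on scan 2 alone, with normexp and with the 2 phases alone, 4 in the authors' values, and 1 to 3 leaving out single arrays. For methanol-adapted cells against logarithmic growth it was 2 to 4 leaving out single arrays, with 4 without methanol array 2. For methanol-adapted cells against the end of glycerol feeding it was 4 as reported, 2 without a scan block or with the near-identical arrays averaged, and 1 on scan 2 alone. For the arrays labelled rhHSA peak it was 2 against the end of glycerol feeding without a scan block and on scan 2 alone (4 as reported), and 4 against methanol-adapted cells with quantile normalization and in the authors' values (2 as reported). For the end of fermentation it fell against each of the 3 phases before the arrays labelled rhHSA peak with the near-identical arrays averaged. That fit leaves 1 sample for the end of fermentation. For this phase it was 1 against the end of glycerol feeding with fermentor as a replicate block and scan block. It was 1 against methanol-adapted cells with the 2 phases alone, and 4 against logarithmic growth with array weights and with the 2 phases alone. The replicate block changed no other call than those given here or beside the results. Directions turned mostly for GND1. With quantile normalization and in the authors' values (these the same with or without a scan block) it stood at -0.057 and -0.057 for the end of glycerol feeding against logarithmic growth, at 0.058 and 0.045 for methanol-adapted cells against logarithmic growth, at 0.11 and 0.10 for them against the end of glycerol feeding, and at -0.16 and -0.16 for the arrays labelled rhHSA peak against methanol-adapted cells. For the end of fermentation it stood at 0.11 and 0.098 (0.097 with a scan block) against logarithmic growth, at 0.17 and 0.15 against the end of glycerol feeding and at 0.21 and 0.21 against the arrays labelled rhHSA peak. Against the arrays labelled rhHSA peak it was 0.0020 when scan was dropped, whether or not fermentor was a replicate block, and -0.19 to 0.017 leaving out single arrays. Against methanol-adapted cells it was -0.078 with array weights, -0.083 on scan 1 alone and with the 2 phases alone, and -0.12 to 0.15 leaving out single arrays. For the arrays labelled rhHSA peak against methanol-adapted cells, leaving out single arrays gave -0.10 to 0.26. With quantile normalization and in the authors' values TKL1 stood at 0.15 and 0.15 for methanol-adapted cells against logarithmic growth and at 0.10 and 0.18 against the end of glycerol feeding, and in the authors' values at -0.030 for the end of glycerol feeding against logarithmic growth. At the end of fermentation against the end of glycerol feeding, SOL3 stood at 0.016 in the authors' values and ZWF1 at -0.18 when scan was dropped, whether or not fermentor was a replicate block.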
